A study of Arabidopsis thaliana with 30 samples.

Results

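The plastid-encoded genes are the genes carried by the circular DNA of the plastid, the organelle that becomes the chloroplast in light, the etioplast in dark-grown shoots and a colourless plastid in most root cells. They were chosen by position and measured level, as the genes annotated on the plastid chromosome (Pt) whose mean count over the 30 libraries was at least 10, which left 93 of 133 plastid genes out of 33602 genes listed. Beyond position, the members were selected on these mean counts only. Since plastid counts were highest in shoots, 7 of the 93 passed through the shoot libraries and averaged under 10 counts in the root libraries, so a difference between organs was built into those 7. The other 86 also averaged at least 10 counts in the root libraries alone. Just inside the threshold lay trnQ and trnM with mean counts of 11.03 and 16.9, and just outside it trnL (ATCG01030) and a trnG (ATCG00310) with 8.67 and 5.07.

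Plastid DNA encodes core subunits of the photosystems, the cytochrome b6f complex, the ATP synthase and the NDH complex, the large subunit of Rubisco, and parts of the plastid's own ribosomes and tRNA set. It is read by a bacterial-type polymerase, whose core subunits rpoA, rpoB, rpoC1 and rpoC2 are themselves plastid genes and which needs nuclear-encoded sigma factors, and by nuclear-encoded phage-type polymerases. In Arabidopsis the phage-type enzymes are known for reading rpoB and accD, while most photosynthesis genes depend on the bacterial-type enzyme.

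The study asked how roots and shoots of dark-grown Arabidopsis thaliana seedlings respond to auxin and abscisic acid (ABA). Seedlings were 5 days old (1 day of light, 4 days of darkness), were treated in liquid medium for 2 h, and were then cut at the junction of root and shoot. There were 10 groups of 3 libraries. Shoots and roots of the mutant aba2-3 received the auxin indole-3-acetic acid (IAA) at 10 µM or mock treatment, and shoots and roots of the wild type Col-O received 10 µM ABA, 10 µM IAA or mock treatment. The mock solvent was ethanol. The aba2-3 line carries a mutation in ABA2, an enzyme of ABA synthesis. ABA2 itself had 7.75 to 10.97 CPM (counts scaled by the library total) in aba2-3 shoots and 6.56 to 13.65 CPM in Col-O shoots, and 19.0 to 31.4 CPM in aba2-3 roots and 15.8 to 30.6 CPM in Col-O roots, so its RNA level does not mark the genotype. The labels do not say whether the 3 libraries of a group came from separate cultures, so p-values measure the spread between these libraries only. In bulk tissue, fewer cells of a type and less RNA per cell cannot be told apart.

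Library totals ran from 3871038 to 99263091 counts in shoots and from 11835730 to 48792642 counts in roots. A set of 7 libraries stood apart. In roots these were Col-O mock replicate 3, Col-O IAA replicate 2, Col-O ABA replicates 2 and 3 and aba2-3 mock replicate 1. They had summed levels of 12 shoot markers (nuclear genes of light harvesting, Rubisco and protochlorophyllide reduction) of 3638 to 7274.5 CPM, against 208 to 1138.5 CPM in the other 10 root libraries and 25185 to 79206 CPM in shoots. None of the 12 was at 0 in any library. The other 2 were Col-O mock shoot replicate 1, with the lowest shoot marker sum, and aba2-3 IAA shoot replicate 3, with the smallest total. Of 14 root markers, 0 to 1 were at 0 in a root library and 0 to 3 in a shoot library. Root hair and root tip genes (EXPA7, EXPA18, COBL9, PLT1 and PLT2) had medians of 0.0819 to 0.549 CPM in shoots and 2.61 to 37.2 CPM in roots, while the endodermal CASP genes were expressed in both organs.

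Of the 40 plastid genes outside the set, 36 lie wholly inside the inverted repeat, a stretch of 26264 bases that the plastid genome carries as 2 copies (Pt:84171-110434 and Pt:128215-154478). They include the 7 genes classed here as ribosomal RNA and both copies of rpl2, rpl23, ycf2, ndhB and rps7. ATCG00970, left unnamed, has the same share of A and of GC as ATCG01160, which is among those 7. The highest mean count of the 36 was 2.27, and the highest count in any library was 19. How reads that match both copies were counted is not given in the sources used here, so these genes are not described further and their counts are no measure of their RNA.

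Levels of different genes are given in RPKM (reads per kilobase of exon, scaled to the library total), which allows genes of different length to be compared. By RPKM, psbM, a small photosystem II subunit, was highest in shoots with a median of 5965 RPKM over 15 libraries (range 2088 to 13872). It was followed by rpl32, a ribosomal protein, with 5312 RPKM (2066 to 10689) and trnK with 3205 RPKM (1349 to 4991). The exons of trnK flank matK, which lies in its intron, and the strand setting of the counting is not given. Short exons, such as the 105 bases of psbM and the 159 bases of rpl32, make RPKM sensitive to how fragments are counted.

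psbA, which encodes the D1 reaction-centre protein of photosystem II and is known as an abundant transcript of green leaves, stood at rank 85 of 93 in shoots with 30.2 RPKM (10.8 to 64.3). It stood at rank 78 in roots with 3.31 RPKM (1.23 to 7.23). rbcL, the large subunit of Rubisco, had 418 RPKM in shoots (244 to 652) and 23.2 RPKM in roots (15.8 to 75.9). rpoB was at rank 92 in both organs, with 12.2 RPKM in shoots (4.63 to 20.5) and 0.945 RPKM in roots (0.405 to 2.01). Of the 93 genes, accD differed most in rank between organs. It is the plastid-encoded subunit of acetyl-CoA carboxylase in fatty acid synthesis, and stood at rank 66 in shoots with 82.0 RPKM (41.4 to 108) and rank 13 in roots with 44.7 RPKM (32.4 to 96.5).

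Plastid transcripts carry no stable poly(A) tail, and the primer used by the cDNA kit is not given in the labels. The longest run of A in the gene body, where an oligo(dT) primer can anneal, is therefore shown in capitals, within 60 bases of coding sequence, for the gene of highest level, for accD and for psaA and psbA. Bases are from the RefSeq plastid genome of TAIR10.1, on which 90 of the 93 genes have the same start and end as in the deposited tables, and are written on the gene's own strand.
psbM (Pt:28707-28766, minus strand): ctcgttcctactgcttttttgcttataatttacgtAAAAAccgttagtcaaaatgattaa
accD (Pt:57348-57407, plus strand): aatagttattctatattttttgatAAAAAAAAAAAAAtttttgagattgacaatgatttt
psaA (Pt:41770-41829, minus strand): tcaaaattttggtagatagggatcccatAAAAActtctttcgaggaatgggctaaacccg
psbA (Pt:1340-1399, minus strand): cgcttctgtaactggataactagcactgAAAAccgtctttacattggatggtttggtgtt
Within the gene body the longest run was 5 bases in psbM, 13 in accD, 5 in psaA and 4 in psbA. Across the 93 genes it ran from 2 to 14 bases with a median of 5. Its rank correlation with the median shoot RPKM was -0.03 (Spearman, across 93 genes that share libraries and are not independent), and that of the share of A was 0.06. With the log2 fold change of shoot over root in Col-O mock seedlings the rank correlation was -0.17 for the longest run and -0.28 for the share of A. When the 200 bases downstream of the gene were included, the longest run was 13 in psbM, 13 in accD, 5 in psaA and 6 in psbA. The rank correlation of that run with the median shoot RPKM was 0.10.

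The plastid share of all counts was higher in shoots than in roots, 15.02-fold in aba2-3 mock and 10.7-fold in Col-O mock seedlings by group means. Shoot libraries gave 0.815% to 2.03% of their counts to plastid genes (median 1.66%), and root libraries 0.0672% to 0.251% (median 0.106%). The ranges did not overlap. In mock-treated seedlings the share was 1.74% ± 0.204 in aba2-3 shoots against 0.116% ± 0.0378 in aba2-3 roots, and 1.54% ± 0.631 in Col-O shoots against 0.145% ± 0.0569 in Col-O roots (SD, n = 3). The widest 95% Wilson interval relative to its value was 0.122% to 0.126%, in aba2-3 IAA root replicate 2. Intervals of this kind cover counting error only, since reads were not tagged as molecules. The summed mitochondrial share was lower in shoots, with 0.645% to 1.24% of counts in shoots and 1.499% to 4.45% in roots. Gene by gene, 0 of 30 mitochondrial genes tested were called higher and 9 lower in aba2-3 mock shoots (median log2 fold change -0.95), and 1 higher and 2 lower in Col-O mock shoots (median 0.15).

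**Figure D1:**
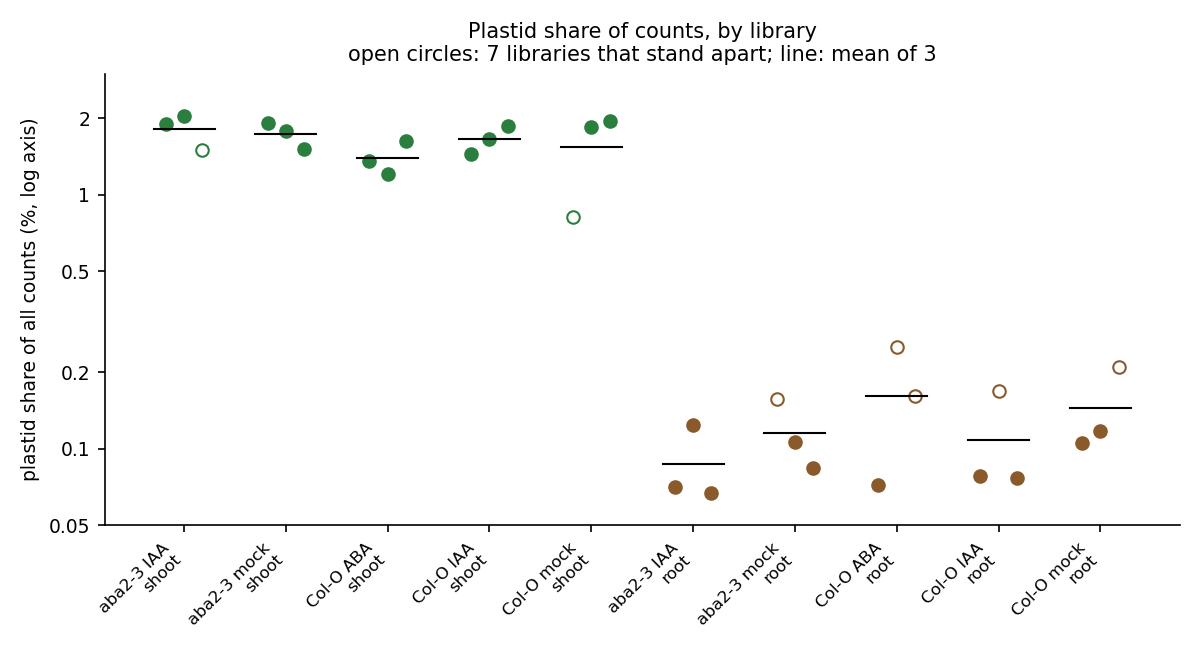
Plastid share of all counts (%, log axis) in each of the 30 libraries, by group, shoots (green) left of roots (brown). Lines are means of 3 libraries and open circles are the 7 libraries that stand apart. Every shoot library lies at or above 0.815% and every root library at or below 0.251%.

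Among roots, the plastid share was highest in the libraries with high shoot markers. The 5 root libraries that stand apart had plastid shares of 0.158% to 0.251%, and the other 10 had 0.0672% to 0.124%. The share of plastid counts that fell on accD went the other way, at 2.61% to 4.11% in those 5 and 5.75% to 11.4% in the other 10, against 0.532% to 0.869% in shoots. psaA and psaB together took 7.20% to 13.8% of plastid counts in those 5, 3.28% to 8.71% in the other 10, and 9.87% to 21.9% in shoots. Within the other 10 the order differed. Col-O mock replicate 1 had a marker sum of 270 CPM and a plastid share of 0.106%, and aba2-3 IAA replicate 3 had 399 CPM and 0.0672%. With the highest marker sum of the 10 (1138.5 CPM), aba2-3 IAA replicate 2 had their highest plastid share (0.124%) and also the highest accD share (11.4%). The part of shoot RNA in these root values was not tested.

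**Figure D2:**
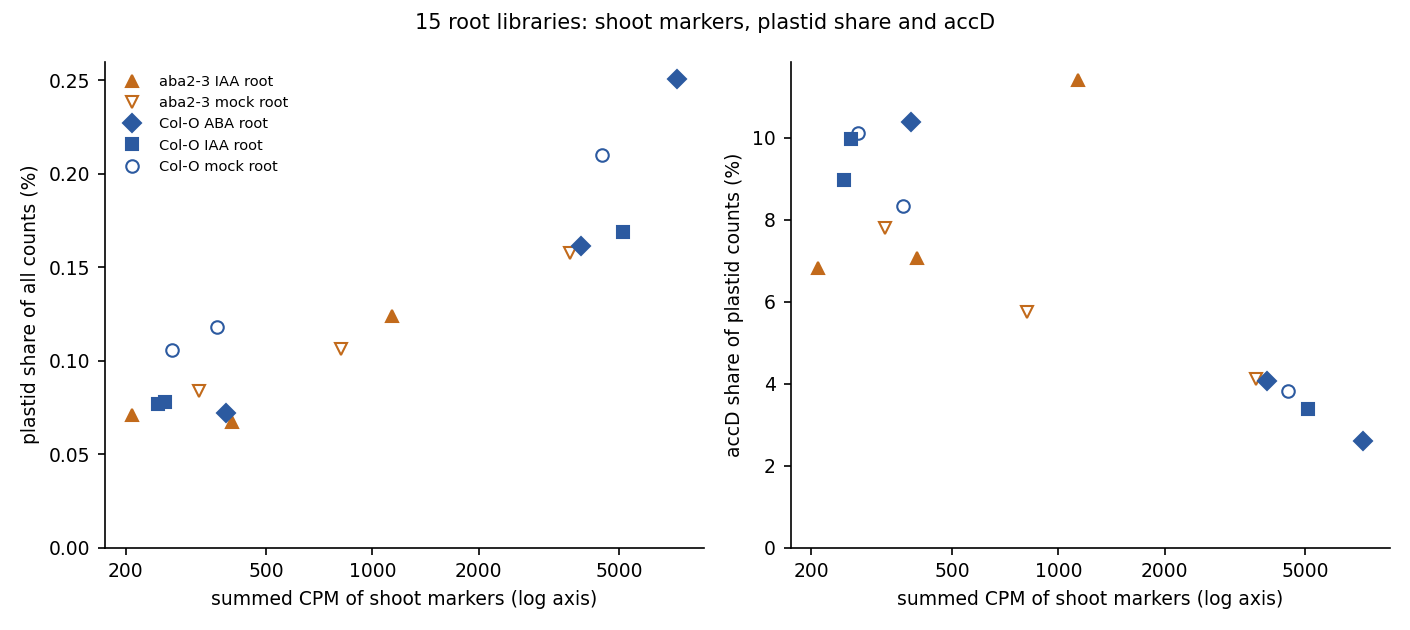
The 15 root libraries, with the summed CPM of 12 shoot markers on the horizontal log axis and, on the vertical axes, the plastid share of all counts (left, %) and the share of plastid counts that fell on accD (right, %). Markers and colours give the group. The 5 libraries at 3638 CPM and above have the highest plastid shares, 0.158% or more, and the lowest accD shares, 4.11% or less.

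Between shoot and root of mock-treated seedlings, plastid genes of every class were higher in shoots. In aba2-3, 93 of 93 genes passed the threshold (adjusted p under 0.05 in edgeR's quasi-likelihood F test, Benjamini-Hochberg over all genes), all higher in shoots, beside 27.7% of all genes tested that were called higher, 26.3% lower and 53.9% in either direction. In Col-O, 92 of 93 were called higher, beside 25.6% of all genes tested called higher, 24.3% lower and 49.9% in either direction. DESeq2 also gave 93 and 92. Of the 86 genes that averaged at least 10 counts in roots alone, 86 were called in aba2-3 and 85 in Col-O. Their median log2 fold changes were 3.69 in aba2-3 and 3.64 in Col-O. The median log2 fold change of the 93 was 3.67 in aba2-3 (0.77 to 5.57) and 3.52 in Col-O (0.36 to 5.60). Over all genes tested the medians were -0.01 and -0.03.

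**Figure D3:**
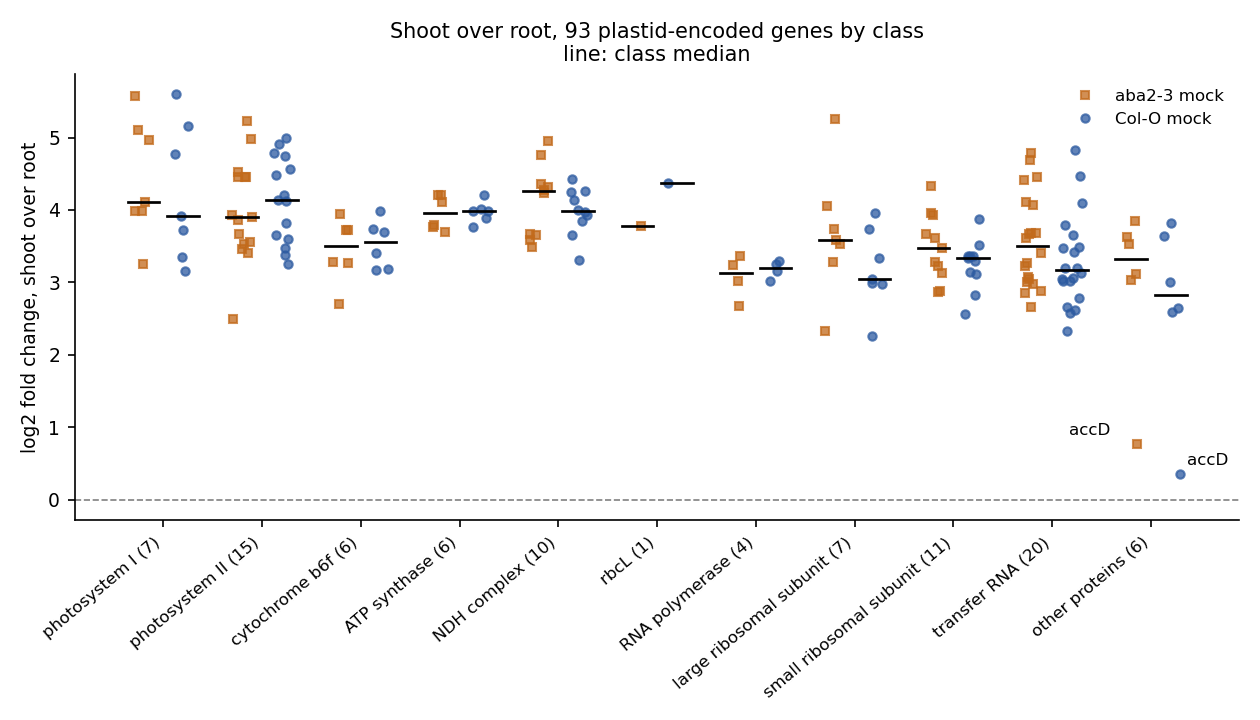
Log2 fold change of shoot over root in mock-treated seedlings for the 93 plastid genes by class, with the number of genes in each class in brackets. Orange squares are aba2-3, blue circles are Col-O, and lines are class medians. accD lies at 0.77 in aba2-3 and 0.36 in Col-O, below all other genes, the next lowest of which is rpl20 at 2.33 in aba2-3 and 2.27 in Col-O.

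The photosystem I genes included the largest differences. psaA encodes one of the paired core proteins that carry the reaction centre. It had 816, 441 and 264 CPM in aba2-3 mock shoots, against 27.0, 10.2 and 7.21 CPM in aba2-3 mock roots (CPM on TMM-scaled library sizes, here and below). In Col-O it had 195, 660 and 604 CPM in mock shoots, against 4.09, 4.53 and 21.6 CPM in mock roots. The shoot libraries were all above the root libraries in both genotypes. The log2 fold change was 5.10 in aba2-3 (SE 0.90, adjusted p = 3.22e-05) and 5.60 in Col-O (SE 0.92, adjusted p = 1.55e-05).

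psaB, the partner of psaA in the core and its neighbour in one transcript, had 3349, 2535 and 1875 CPM in aba2-3 mock shoots against 124, 79.3 and 45.9 CPM in roots. In Col-O it had 944, 2341 and 2823 CPM in mock shoots against 26.4, 31.3 and 113 CPM in roots. Again no root library reached a shoot library, with log2 fold changes of 4.96 (SE 0.74) in aba2-3 and 5.16 (SE 0.75) in Col-O. psaC, the iron-sulphur subunit on the stromal side, averaged 78.3 ± 19.3 CPM in aba2-3 shoots and 1.69 ± 1.67 CPM in aba2-3 roots, the largest rise of that genotype (log2 fold change 5.57, SE 0.74). psaJ, a small subunit, had log2 fold changes of 3.98 (SE 0.52) in aba2-3 and 3.72 (SE 0.52) in Col-O. All 7 photosystem I genes, with the assembly factors ycf3 and ycf4 counted in, rose in both genotypes, with class medians of 4.11 in aba2-3 and 3.92 in Col-O.

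The 15 photosystem II genes were also all called higher in both genotypes, with medians of 3.91 in aba2-3 and 4.14 in Col-O. psbD (the D2 reaction-centre protein) had log2 fold changes of 3.93 (SE 0.80) in aba2-3 and 4.91 (SE 0.85) in Col-O, and psbC (the CP43 antenna) 3.87 (SE 0.72) and 5.00 (SE 0.76). Their exons overlap, and how reads in the overlap were assigned is not given. psbK, a small subunit, had 5.23 in aba2-3 (SE 0.81), psbI, another, had 4.98 in aba2-3 (SE 0.86) and 4.49 in Col-O (SE 0.84), and psbM had 4.45 (SE 0.66) and 3.60 (SE 0.63).

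psbA differed least of the class in both genotypes. It had 23.9, 40.5 and 35.1 CPM in aba2-3 mock shoots against 7.42, 6.21 and 4.02 CPM in roots, a log2 fold change of 2.50 (SE 0.48). In Col-O it had 11.2, 22.7 and 33.9 CPM in shoots against 1.34, 2.02 and 3.86 CPM in roots, a log2 fold change of 3.25 (SE 0.51). The groups did not overlap in either genotype. Upstream of psbA the genome carries TTGACA, the consensus of the promoter element that bacterial-type polymerases read, 115 bases before the start codon, shown in capitals with the bases that follow it.
psbA upstream (Pt:1530-1559, minus strand): TTGACAtggctatataagtcatgttatact
The letters TTGACA occurred on the gene's strand in the 150 bases before 9 of the 93 genes (9.68%) and on either strand before 10 of them (10.8%), against 12 (9.02%) and 15 (11.3%) of all 133 plastid genes. TATAAT, the other consensus element, occurred before 17 of the 93 (18.3%) on the gene's strand and before 27 (29.0%) on either strand, against 19 (14.3%) and 29 (21.8%) of all 133. A match of letters is a description and no evidence of use.

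The genes of the cytochrome b6f complex (6), the ATP synthase (6) and the NDH complex (10) were all called higher in shoots of both genotypes. The 6 include petN, which has low counts, with means of 1.46 CPM in aba2-3 and 1.74 CPM in Col-O mock shoots. For any gene here that averaged under 10 counts in roots the organ difference was built in by the selection. Their median log2 fold changes were 3.50, 3.95 and 4.26 in aba2-3 and 3.55, 3.99 and 3.99 in Col-O. petB, the b6 cytochrome, had 3.73 (SE 0.48) in aba2-3 and 3.98 (SE 0.49) in Col-O, and petL, a small subunit, had 3.95 (SE 0.51) and 3.70 (SE 0.51). atpB, the catalytic beta subunit, averaged 1492 ± 167 CPM in aba2-3 shoots and 80.5 ± 30.6 CPM in aba2-3 roots (log2 fold change 4.21, SE 0.45), and 1303 ± 478 CPM in Col-O shoots and 80.8 ± 48.3 CPM in Col-O roots (4.01, SE 0.45). atpE, the epsilon subunit, whose exon overlaps that of atpB, averaged 799 ± 116 CPM in aba2-3 shoots and 43.4 ± 9.53 CPM in aba2-3 roots (SD, n = 3). In the NDH complex ndhD had 4.76 (SE 0.65) in aba2-3 and 4.43 (SE 0.64) in Col-O, and ndhC 4.28 (SE 0.51) and 3.93 (SE 0.50).

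rbcL had 806, 798 and 545 CPM in aba2-3 mock shoots against 89.1, 45.1 and 22.4 CPM in roots. In Col-O it had 344, 899 and 986 CPM in mock shoots against 23.9, 24.5 and 58.8 CPM in roots. All shoot libraries were above all root libraries, and the log2 fold changes were 3.78 (SE 0.52) in aba2-3 and 4.38 (SE 0.54) in Col-O.

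The polymerase genes and the ribosomal protein genes were called too, with smaller medians than the photosystem genes. The 4 rpo genes had medians of 3.13 in aba2-3 and 3.20 in Col-O. rpoB, the beta subunit, had 39.9, 35.8 and 30.2 CPM in aba2-3 mock shoots against 4.03, 4.09 and 2.17 CPM in roots (log2 fold change 3.36, SE 0.49), and in Col-O 14.6, 41.4 and 51.1 CPM in mock shoots against 2.52, 2.73 and 5.77 CPM in roots (3.30, SE 0.49). The groups did not overlap. rpoA, rpoC1 and rpoC2 had 3.25, 3.02 and 2.67 in aba2-3 and 3.16, 3.25 and 3.02 in Col-O. The 7 large-subunit ribosomal protein genes had medians of 3.59 in aba2-3 and 3.05 in Col-O, and the 11 small-subunit genes 3.48 and 3.33. rpl32 rose most among them, by 5.25 in aba2-3 (SE 0.87) and 3.95 in Col-O (SE 0.81), and rpl16, rps3 and rps18 had 3.53, 3.61 and 3.92 in aba2-3 and 2.99, 2.83 and 3.52 in Col-O.

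The ratio of photosynthesis genes to polymerase genes, on summed RPKM, had a higher median in shoots than in roots. The log2 ratio of the summed RPKM of 27 photosynthesis genes (photosystems, cytochrome b6f and rbcL) to that of rpoB, rpoC1 and rpoC2 was 6.87 to 7.99 in shoots (median 7.46) and 5.69 to 7.08 in roots (median 6.48). The ranges overlapped. Among roots the ratio was 6.67 to 7.003 in the 5 libraries with high shoot markers and 5.69 to 7.08 in the other 10. Short genes weigh most in this sum. In shoots psbM, psbI and psbK had medians of 5965, 2323 and 1460 RPKM, against 829 for psaB, 418 for rbcL and 163 for psaA. The ratio without these short genes was not taken.

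The 20 tRNA genes were all called higher in both genotypes, with medians of 3.51 in aba2-3 and 3.17 in Col-O. The 7 genes that averaged under 10 counts in roots include tRNA genes. For those the organ difference was built in by the selection, and the count and medians of this class contain them. trnK had 4.46 (SE 0.63) in aba2-3 and 3.05 (SE 0.59) in Col-O, and the tRNA gene ATCG00390, which has no symbol in RefSeq, 3.68 (SE 0.40) and 2.78 (SE 0.38). trnM and trnQ, which have low counts, were called in Col-O although their shoot and root libraries overlapped.

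Of the remaining 6 genes, 5 rose in both genotypes. ycf1, whose product is thought to belong to the protein import machinery of the inner envelope, had 3.52 (SE 0.33) in aba2-3 and 2.60 (SE 0.31) in Col-O. One end of ycf1 lies in the inverted repeat, so part of it is counted like the genes there. matK, an intron maturase, had 3.63 (SE 0.51) and 3.82 (SE 0.52), and clpP, a subunit of the stromal Clp protease, 3.03 (SE 0.33) and 3.01 (SE 0.33).

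accD stood apart from the other 92. It had 101, 115 and 103 CPM in aba2-3 mock shoots against 62.6, 59.1 and 64.8 CPM in aba2-3 mock roots. In Col-O it had 59.5, 132 and 131 CPM in mock shoots against 94.0, 85.9 and 71.7 CPM in mock roots. The shoot libraries were above the root libraries in aba2-3, while in Col-O the groups overlapped because shoot replicate 1 was below every root library. The log2 fold change was 0.77 in aba2-3 (SE 0.31, adjusted p = 0.0373), a 1.71-fold difference. In Col-O it was 0.36 (SE 0.31, adjusted p = 0.354) and not called, and whether the genotypes differ was not tested. Without Col-O mock shoot replicate 1 it was 0.70 (adjusted p = 0.058), and in aba2-3 leaving out 1 library at a time gave 0.74 to 0.83, with adjusted p of 0.0485 to 0.0845 and the call lost in 5 of 6 fits. The other 92 genes were 5.02-fold to 47.6-fold higher in aba2-3 shoots and 4.81-fold to 48.6-fold higher in Col-O shoots. Without aba2-3 mock root replicate 1, psaC reached 109-fold in aba2-3, and without Col-O mock root replicate 3, psaA reached 113-fold in Col-O. In the fit without aba2-3 mock root replicate 1, trnM had 0 counts in both remaining root libraries, so that its fitted change is no measure of size and is not given.

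**Figure D4:**
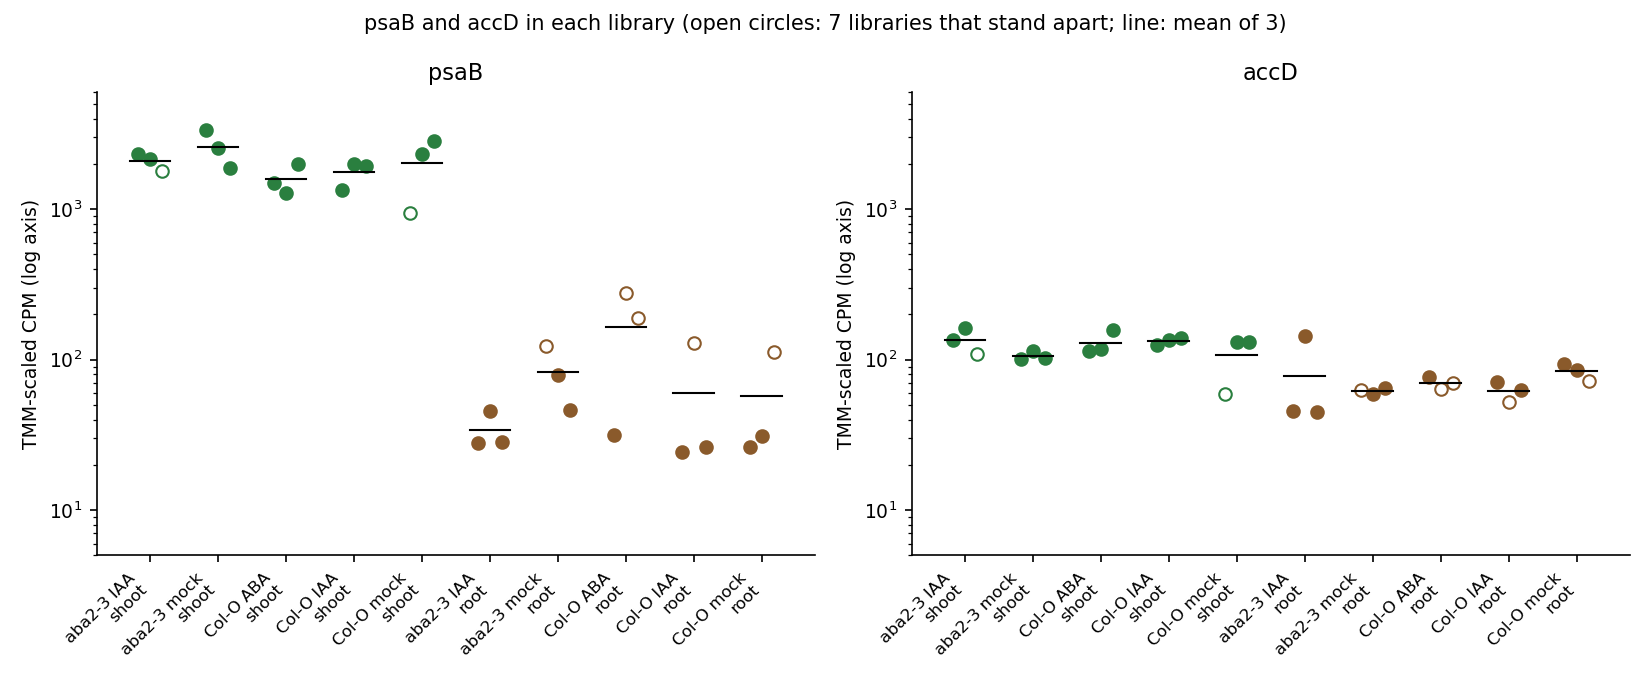
psaB (left) and accD (right) in each of the 30 libraries, in CPM on TMM-scaled library sizes (log axes of equal range), by group, with shoots in green left of roots in brown. Lines are means of 3 libraries and open circles are the 7 libraries that stand apart. psaB has 944 CPM or more in every shoot library and 276 CPM or less in every root library, while accD runs from 59.5 to 163 CPM in shoots and from 45.1 to 143 CPM in roots.

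The size of the organ difference depended on single libraries of both organs, its direction did not. Without Col-O mock root replicate 3 the Col-O median was 3.98, 28 of 93 genes had a fold change more than 1.5 times larger, and psaA reached 6.82. Without aba2-3 mock root replicate 1 the aba2-3 median was 4.00, 18 genes moved by as much, and psaC reached 6.77. A shoot library mattered too. Without Col-O mock shoot replicate 1 the median of the 92 genes other than accD was 15.2-fold in Col-O, against 11.8-fold with all libraries. Without all 7 libraries that stand apart the calls were 93 in aba2-3 and 92 in Col-O, with medians of 3.97 and 4.33, and accD was at 0.78 and 0.56.

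Neighbours on the same strand were more alike than neighbours on opposite strands. Over 61 adjacent same-strand pairs whose exons do not overlap, the log2 fold changes of shoot over root correlated at r = 0.33 in aba2-3 and 0.38 in Col-O, and over 23 pairs on opposite strands at 0.02 and 0.05. These are descriptions across genes that share libraries, scaling and, on one strand, often a transcript.

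The nuclear genes that read the plastid genome were higher in shoots as well. Of 21 listed genes for sigma factors, phage-type polymerases and polymerase-associated proteins, 20 were called higher in shoots in both genotypes. Among all genes tested, 27.7% were called higher in aba2-3 and 25.6% in Col-O. The median log2 fold changes of the 21 were 2.95 in aba2-3 and 2.66 in Col-O. SIG1 had log2 fold changes of 5.67 (SE 0.58) in aba2-3 and 4.04 (SE 0.54) in Col-O, SIG4 5.29 and 4.63, and SIG6 4.31 and 4.33. RPOTp, the phage-type polymerase of plastids, had 1.22 in both (SE 0.36). RPOTmp, which is shared between mitochondria and plastids, was the one not called, with 0.52 in aba2-3 (SE 0.47, adjusted p = 0.368) and -0.35 in Col-O (SE 0.46, adjusted p = 0.56). The remaining sigma factors and PAP genes lay between 1.14 (PAP10 in Col-O) and 4.24 (PAP1 in aba2-3).

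With hormones, few plastid genes were called, which does not show that the others were unchanged. Shares over all genes, here and below, are those of the edgeR fit to all libraries at adjusted p under 0.05. Counts from other fits, from DESeq2 or at an unadjusted p have no such share beside them. IAA in aba2-3 roots gave the most calls. There, 3 of 93 genes were called, all lower, beside 4.82% of all genes called lower, 7.02% higher and 11.8% in either direction, and 14 were lower at an unadjusted p under 0.05. rpoC2, one of the large subunits of the bacterial-type polymerase, had 11.8, 16.3 and 10.0 CPM with IAA against 34.0, 29.4 and 30.6 CPM with mock, with no overlap. Its log2 fold change was -1.31 (SE 0.34, adjusted p = 0.0128). rps16, a small-subunit ribosomal protein, had 0.447, 0.510 and 0.450 CPM with IAA against 2.13, 0.729 and 0.905 CPM with mock. It had a log2 fold change of -1.41 (SE 0.43, adjusted p = 0.0317), and no IAA library reached a mock library.

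matK had 8.42, 8.59 and 8.47 CPM with IAA against 42.0, 20.5 and 12.9 CPM with mock, also without overlap. It fell by 1.56 on the log2 scale (SE 0.48, adjusted p = 0.0353). The highest mock value of rps16 and matK was that of replicate 1, the aba2-3 mock root library with high shoot markers. Without it the changes were -0.82 for rps16 (adjusted p = 0.244) and -0.98 for matK (adjusted p = 0.232), and 1 gene was called. The calls depended on other libraries too. Leaving out 1 library at a time lost the matK call in 5 of 6 fits, that of rps16 in 4 and that of rpoC2 in 1. Without the 7 libraries that stand apart, 12 genes were called lower, with rpoC2 at -1.26 (adjusted p = 0.00113), matK at -0.98 (adjusted p = 0.00582) and rps16 not called. The share of all genes called in that fit was not taken, so whether 12 of 93 exceeds it is not known. Without aba2-3 IAA root replicate 3, 0 genes were called by edgeR, rpoC2 having an adjusted p of 0.0609. DESeq2 called 7 genes lower, these 3 and psbC, psbD, ndhJ and a trnS (ATCG00290). The median of the 93 was -0.60, beside 0.00 over all genes, and the mitochondrial genes had a median of -0.74, with 10 of 30 called lower.

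In Col-O roots IAA gave 0 calls in edgeR, beside 5.57% of all genes (2.64% higher, 2.92% lower), with 4 genes lower at an unadjusted p under 0.05 and 0 calls in DESeq2. The 4 were ycf1, psbT, petN and a trnS (ATCG00370). ycf1 had 124, 154 and 104 CPM with IAA against 183, 219 and 220 CPM with mock, with no overlap and a log2 fold change of -0.71 (SE 0.30, adjusted p = 0.182). The median of the 93 was -0.38, beside -0.01 over all genes. Without the 7 libraries that stand apart, 6 genes were called, all lower, ycf1 among them with -0.84 (adjusted p = 0.0293).

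With ABA in Col-O roots, 0 genes were called in edgeR, beside 15.7% of all genes (8.31% higher, 7.4% lower), with 2 at an unadjusted p under 0.05 and 0 calls in DESeq2. These were psaB and rbcL. psaB had 31.8, 276 and 188 CPM with ABA against 26.4, 31.3 and 113 CPM with mock. The groups overlapped, and the 2 high ABA libraries and the high mock library are those with high shoot markers. Its log2 fold change was 1.54 (SE 0.65, adjusted p = 0.116). The direction of the set turned with these libraries. The median was 0.29 with all libraries, and without the 7 that stand apart it was -0.34, with 5 genes called, all lower. Without Col-O ABA root replicate 2 alone it was -0.06, with 0 called in edgeR. Without Col-O mock root replicate 3 alone, 6 genes were called, all higher. In the fit without the 7, ABA roots are 1 library, which is assumed to vary like the other groups.

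In shoots no plastid gene passed the edgeR threshold with a hormone. IAA gave 0 calls in aba2-3 (beside 1.92% of all genes, 1.4% higher and 0.515% lower) and 0 in Col-O (beside 2.22%, 0.921% higher and 1.3% lower), with 0 at an unadjusted p under 0.05 in both and 0 in DESeq2. The medians were 0.13 and 0.26, beside -0.07 and -0.04 over all genes. ABA in Col-O shoots gave 0 calls, beside 9.65% of all genes (4.98% higher, 4.67% lower), with trnL and psbA at an unadjusted p under 0.05 and 1 call, trnL, in DESeq2 (log2 fold change 1.40, adjusted p = 0.0494). psbA had 34.3, 28.8 and 80.5 CPM with ABA against 11.2, 22.7 and 33.9 CPM with mock, which overlap, with a log2 fold change of 1.08 in edgeR (SE 0.45, adjusted p = 0.141). Without the 7 libraries, 3 genes were called in ABA shoots, all lower, namely psaA, psaC and a trnV.

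**Figure D5:**
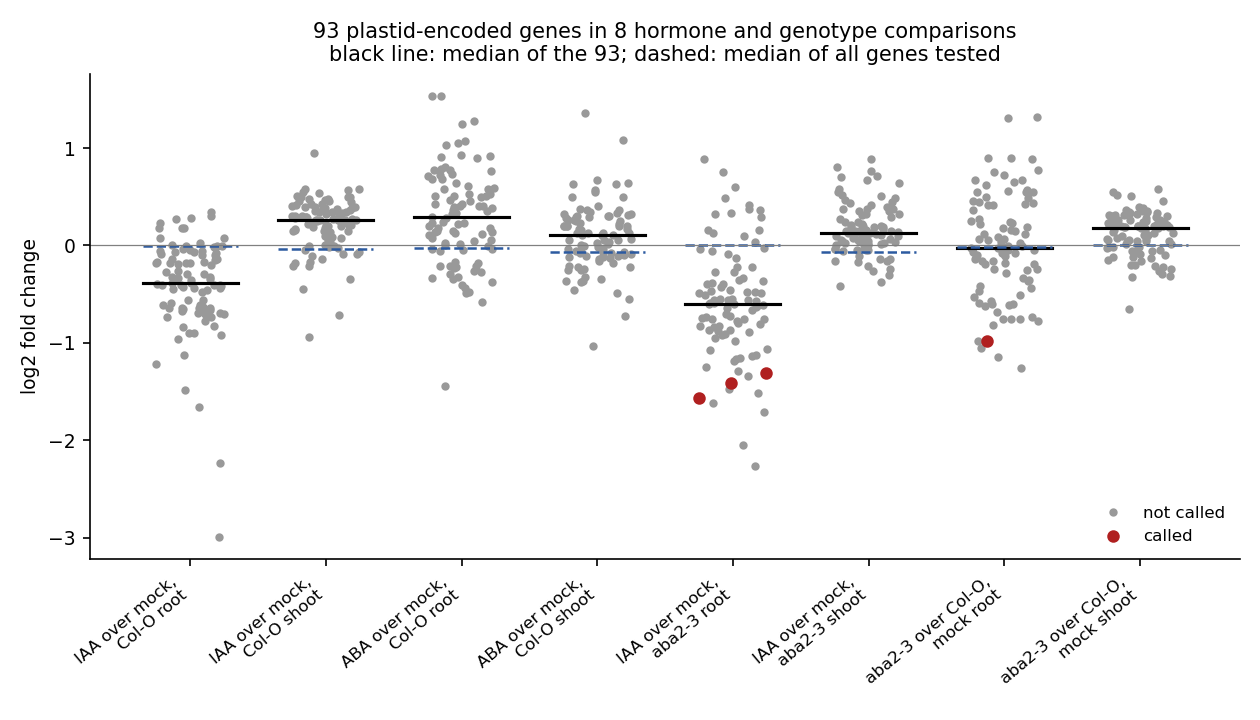
Log2 fold changes of the 93 plastid genes in 8 comparisons of hormone over mock and of aba2-3 over Col-O. Grey points are genes not called and red points are called genes, black lines are medians of the 93 and dashed blue lines are medians of all genes tested. The red points are rpoC2, rps16 and matK for IAA in aba2-3 roots and ycf1 for aba2-3 over Col-O in mock roots.

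Between genotypes, ycf1 was the 1 gene called in mock roots, beside 3.92% of all genes called lower, 3.26% higher and 7.19% in either direction. It had 126, 109 and 78.5 CPM in aba2-3 roots against 183, 219 and 220 CPM in Col-O roots, with no overlap. The log2 fold change was -0.99 (SE 0.30, adjusted p = 0.0453), and the call was lost in 5 of 6 fits without 1 library, with adjusted p up to 0.195. DESeq2 called 2 genes lower, ycf1 (-0.97, adjusted p = 0.0176) and rps3 (-0.97, adjusted p = 0.0464). Without the 7 libraries, 4 genes were called higher and 4 lower, ycf1 being one of those lower, with -1.08. In mock shoots 0 were called in edgeR, beside 2.63% of all genes (0.853% higher, 1.78% lower), with 0 at an unadjusted p under 0.05 and 0 in DESeq2. The medians of the 93 were -0.02 in roots and 0.18 in shoots.

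With all libraries, no plastid gene passed the interaction test for a response that differs between organs or genotypes. In Col-O, the IAA response in shoot minus that in root gave 0 calls in edgeR beside 0.997% of all genes, and the ABA response 0 beside 1.72%. In roots, the IAA response in aba2-3 minus that in Col-O gave 0 beside 1.32%, and in shoots 0 beside 0.00451%. At an unadjusted p under 0.05 there were 7, 3, 3 and 0 genes, and DESeq2 called 0 in each. In the fit without the 7 libraries that stand apart, 2 genes were called in the comparison of aba2-3 with Col-O in roots, trnV with a difference of 1.68 (adjusted p = 0.0288) and ycf1 with 1.15 (adjusted p = 0.0447), both on the log2 scale.

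Of the 21 nuclear genes for plastid transcription, SIG5 was the 1 called with a hormone, higher with ABA in Col-O roots. In that comparison 15.7% of all genes were called (8.31% higher, 7.4% lower). SIG5 encodes a sigma factor known for stress and light responses. In Col-O roots it had 29.2, 66.5 and 65.2 CPM with ABA against 10.5, 16.1 and 27.8 CPM with mock, with no overlap, and rose by 1.56 on the log2 scale (SE 0.36, adjusted p = 0.00311). The 2 highest ABA values and the highest mock value are those of the root libraries with high shoot markers, and SIG5 itself was higher in shoots (median 91.9 CPM) than in roots (18.7 CPM, both on deposited CPM). With the 7 libraries that stand apart left out, which leaves 1 ABA library, the change was 1.15 (adjusted p = 0.0229). In Col-O shoots it had 208, 207 and 165 CPM with ABA against 79.0, 132 and 94.9 CPM with mock, with a log2 fold change of 0.92 (SE 0.35, adjusted p = 0.107). psbD, which carries a light-responsive promoter known to use SIG5, had 2.09, 19.1 and 9.36 CPM with ABA against 2.02, 2.58 and 11.7 CPM with mock in Col-O roots, which overlap.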

How the data were processed

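RNA of 30 libraries was analysed. Total RNA came from an RNeasy kit and cDNA from a SMARTer kit, per the labels' protocols. The submitters' processing notes name STAR, Subread, featureCounts, edgeR, limma and the build TAIR10, with no versions. Strand setting and treatment of reads with several positions are not given in the sources used here. The deposited counts are whole reads per gene, the deposited CPM equals count over library total, and the deposited RPKM equals CPM per kilobase of exon, both within a relative tolerance of 1e-06 in 30 of 30 files. Levels between genes were compared on RPKM.

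Counts were tested with edgeR 4.0.16 (quasi-likelihood F test, TMM scaling, filterByExpr, 22156 genes, 10 group means over all 30 libraries), with p adjusted by Benjamini-Hochberg over all genes in each of 14 comparisons and a threshold of 0.05. SE was taken as |log2 fold change| / sqrt(F). DESeq2 1.42.0 was an alternative. The test was also run on simulated counts with planted changes. These had the same mean profile and spread in every library, with no organ difference and no libraries that stand apart. That run therefore does not cover the conditions of these data. Same-numbered libraries of IAA and mock Col-O shoots deviated together (r 0.130 to 0.349), as a pattern in the data and not in the labels, and a replicate block there left 0 calls. Replicates were compared first: chi-square per degree of freedom was 5.31 to 149 between libraries of a group, so all pairs differed by more than counting error. Symbols and sequences are from RefSeq (TAIR10.1): 90 genes by the same start and end, 3 by overlap.

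The genes, gene lists, comparisons and the 7 libraries left out were chosen with earlier results of these data known. Genes were named by rule: the 2 highest RPKM of each class, 13 genes of interest, the 4 largest called rises and falls of each comparison, and called genes of the 21 nuclear genes. rpl20, trnM, trnQ, psbT, petN, trnL, trnS, trnV, rps3 and the genes lost or gained under alternatives were named after their values were seen.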

Additional observations from a re-analysis of the deposited data

How the results depend on the processing

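The shoot-over-root counts stayed within 90 to 93 of 93 under every alternative run (RLE size factors, DESeq2, no filter, scaling on nuclear genes, the replicate block, 1 library left out, 7 libraries left out), and no plastid gene named there reversed. Leaving out 1 of 3 libraries cannot move a mean share by 1 SD, so it says nothing about the stability of shares. Without the 7 libraries that stand apart, Col-O ABA roots are 1 library with a plastid share of 0.07205% against a mean of 0.161%, and a photosynthesis-to-rpo log2 ratio of 6.317 against 6.66. The other groups lost 1 library at most in that step, so the same limit holds for their shares and ratios. The plastid share went from 1.54% to 1.90% in Col-O mock shoots and from 0.116% to 0.0950% in aba2-3 mock roots. The hormone and genotype counts were less stable, and the cause was not tested. Shares of all genes called were not taken under the alternatives, so these counts cannot be set against them. Without the 7 libraries that stand apart they were 6 (IAA, Col-O roots), 5 (ABA, Col-O roots), 3 (ABA, Col-O shoots), 12 (IAA, aba2-3 roots), 8 (aba2-3 over Col-O, mock roots) and 2 (aba2-3 minus Col-O IAA response, roots). DESeq2 gave 1, 7 and 2 for ABA in Col-O shoots, IAA in aba2-3 roots and aba2-3 over Col-O in mock roots. RLE gave 0 for the last. Leaving out 1 library gave 0 to 6 for ABA in Col-O roots, 0 to 4 for IAA in aba2-3 roots and 0 to 1 for aba2-3 over Col-O in mock roots.

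Of 30 same-numbered pairs 11 had correlated deviations above 0.1 (-0.34 to 0.39). Counting a library once in each comparison it enters, 24 of 60 entries matched their own number best among 3 candidates. All 3 pairs were above 0.1 for IAA over mock in Col-O shoots (0.130 to 0.349) and in no other comparison. With the replicate block 4 genes were called for IAA in aba2-3 roots against 3 without, and the counts of the other comparisons were as without it. Depth limits the tRNA genes with the fewest counts (trnQ and trnM), whose values in roots are near 0. The steps that leave libraries out of the shares, and all those for SIG5 (called in all 12), were added after the data were seen.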
